A study of Homo sapiens with 9 samples.

Results

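The baseline transcriptome of the control cells was read from 3 of the 9 libraries of the series, the control libraries numbered 1, 2 and 3. They were taken by their labels, not by any measured value. The cells are labelled Huh7, an established human hepatocellular carcinoma line, grown in DMEM. Knock-down of OPA1 by lentivirus is the treatment text of every library in the series, and the controls carry it too. What the controls received is not said beyond the word control, nor whether the 3 libraries came from separate cultures. The spread between them may therefore be technical. Total RNA was sequenced after library preparation by a standard Illumina protocol. No comparison with the knock-down libraries is made, so every value is a description of these 3 libraries.

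Hepatocytes are the liver cells that make most plasma proteins, and their identity is kept by a network of transcription factors that includes HNF4A, FOXA2 and CEBPA. Huh7 is widely used for hepatitis virus work and is known for making albumin and alpha-fetoprotein. PAX2, LHX1 and PAX8 are factors of the developing kidney and its ducts. VIM encodes an intermediate filament of mesenchymal cells and of many cultured lines, COL6A3 a chain of a beaded matrix collagen, and KRT7 a keratin of ductal epithelia.

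The liver genes that would mark the labelled line were at or near 0, so the data go against the label, and the cells are referred to only as the cells labelled Huh7. What accounts for this was not tested. ALB, which encodes serum albumin, had 3, 0 and 2 reads in control 1, 2 and 3. AFP, which encodes alpha-fetoprotein, had 19, 13 and 13 reads. APOB, the protein backbone of low-density lipoprotein, had no read in any of the 3, and APOA1, that of high-density lipoprotein, had 1, 1 and 1. HNF4A had 1, 0 and 1 reads. In such bulk RNA, fewer cells of a type and less RNA per cell cannot be told apart. A count of 3 in a library equals 0.146, 0.154 and 0.135 CPM (counts per 1000000 counts of the library) in control 1, 2 and 3. This is the limit that a count of 0 allows, for counting error only.

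The 5 marker genes listed for these cells were present in every library. They were chosen with earlier results of these data known. No other cells were compared, so their levels do not show that they mark these cells. VIM (chromosome 10, 17228259 to 17237593, plus strand, by the GENCODE 29 annotation of GRCh38) stood at 1412, 1522 and 1553 CPM in control 1, 2 and 3, a mean of 1496 ± 74.4 (SD, n = 3). COL6A3 (chromosome 2, 237324003 to 237414375, minus strand) stood at 1971, 1773 and 1717 CPM, a mean of 1820.5 ± 133.6. KRT7 (chromosome 12, 52232520 to 52252186, plus strand) stood at 688, 591 and 692 CPM, with control 2 the lowest. PAX2 (chromosome 10, 100735603 to 100829941, plus strand) stood at 167, 115 and 181 CPM and was also lowest in control 2. LHX1 (chromosome 17, 36936785 to 36944612, plus strand) stood at 102, 101 and 94.97 CPM, within a narrow range. Between genes, levels are compared only per length, as TPM (transcripts per 1000000) computed from the counts and the exon length of each gene. On that scale VIM was at 1107 ± 65.7 TPM, KRT7 at 613 ± 59.5, COL6A3 at 354 ± 23.6, PAX2 at 94.5 ± 22.6 and LHX1 at 77.6 ± 1.89 (SD, n = 3).

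Promoter sequence is shown for genes on both sides of this contrast, from the 250 bases before the first start that RefSeq lists for each gene (GRCh38.p14). FLNA, VIM and PAX2 were well read in these libraries, and ALB and AFP were not. Bases that GENCODE 29 places in an exon of the same gene are not printed, 4 for FLNA, 48 for ALB and 58 for AFP. Capitals mark CG dinucleotides, the sites of DNA methylation, searched as the letters CG, which read the same on both strands. The genes were chosen after the levels were known. KRT7 and LHX1 had no entry in the table of promoters.
FLNA (chrX:154374639-154374884, minus strand): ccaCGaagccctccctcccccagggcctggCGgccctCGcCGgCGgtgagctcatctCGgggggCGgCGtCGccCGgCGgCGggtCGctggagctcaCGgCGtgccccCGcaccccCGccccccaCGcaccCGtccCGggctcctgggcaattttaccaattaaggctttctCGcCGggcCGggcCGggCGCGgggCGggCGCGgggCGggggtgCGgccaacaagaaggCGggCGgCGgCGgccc
VIM (chr10:17227991-17228240, plus strand): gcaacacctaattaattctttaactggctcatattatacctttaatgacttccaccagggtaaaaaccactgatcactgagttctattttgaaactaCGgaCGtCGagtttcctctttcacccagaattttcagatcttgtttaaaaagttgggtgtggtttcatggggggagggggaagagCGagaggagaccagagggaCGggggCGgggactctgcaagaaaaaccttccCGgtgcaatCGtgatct
PAX2 (chr10:100735146-100735395, plus strand): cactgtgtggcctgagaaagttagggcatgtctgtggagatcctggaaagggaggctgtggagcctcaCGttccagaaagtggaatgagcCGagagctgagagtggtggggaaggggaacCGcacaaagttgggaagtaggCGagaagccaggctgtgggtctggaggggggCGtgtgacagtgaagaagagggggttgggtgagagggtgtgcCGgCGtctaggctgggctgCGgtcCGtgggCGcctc
ALB (chr4:73404037-73404238, plus strand): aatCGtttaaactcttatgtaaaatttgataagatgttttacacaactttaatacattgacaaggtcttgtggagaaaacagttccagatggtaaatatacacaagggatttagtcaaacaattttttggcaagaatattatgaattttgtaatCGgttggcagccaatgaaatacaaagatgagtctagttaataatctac
AFP (chr4:73435971-73436162, plus strand): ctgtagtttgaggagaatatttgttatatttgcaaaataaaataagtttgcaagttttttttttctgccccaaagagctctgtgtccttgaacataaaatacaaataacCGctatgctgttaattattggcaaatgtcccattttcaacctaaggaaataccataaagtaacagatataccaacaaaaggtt
Over the whole window FLNA held 35 CG dinucleotides, PAX2 10, VIM 8, ALB 3 (2 of them printed) and AFP 1. All 27305 first listed promoters had a median of 11, with quartiles of 3 and 23. PAX2 and VIM were thus near the median, FLNA above the upper quartile, and ALB and AFP at or under the lower. These counts describe the letters of each window, and methylation was not measured.

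The control libraries held 20539140, 19510555 and 22164035 counts over 60448 rows, of which 34605 had no read in any of the 3. A mean of at least 1 CPM was reached by 13233 genes, of at least 10 CPM by 9383, of at least 100 CPM by 2420 and of at least 1000 CPM by 83. A gene counts as present when its mean was at least 1 CPM. Among protein-coding genes 11858 of 19657 were present, or 60.3%, and their median was 6.86 CPM. That share is the one to set beside each count of list members below. Protein-coding genes took 98.2% to 98.3% of the counts. The 10 genes with the most reads took 5.01% to 5.57%, the 100 with the most 17.7% to 18.4%, and the 1000 with the most 50.4% to 50.8%.

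The nuclear genes with the most reads were FLNA and ACTB. FLNA, which encodes the actin cross-linker filamin A, stood at 7132, 6333 and 6721 CPM, and ACTB, or beta-actin, at 6496, 6659 and 6988 CPM. Of the 25 genes with the most reads, FLNA, ACTB, ACTG1, TMSB4X, PLEC, ACTN4 and MYH9 encode actins or proteins that bind actin or link filaments. EEF1A1 and EEF2, which carry out elongation, and RPL8, a ribosomal protein, were among them at 5989.7 ± 367, 2744 ± 22.9 and 2743 ± 55.5 CPM. ENO1 and PKM, enzymes of glycolysis, stood at 3468 ± 99.4 and 2039 ± 52.6 CPM, and FASN, the fatty acid synthase, at 2077 ± 147. The chaperones HSP90AB1, HSP90AA1 and HSPA8 stood at 2848 ± 186, 2625 ± 239 and 2076 ± 167 CPM. The integrins, receptors for the matrix, were represented by ITGB1 at 3054, 3245 and 3037 CPM and ITGA3 at 2114, 1975 and 1867 CPM, which together form a laminin-binding integrin.

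**Figure D1:**
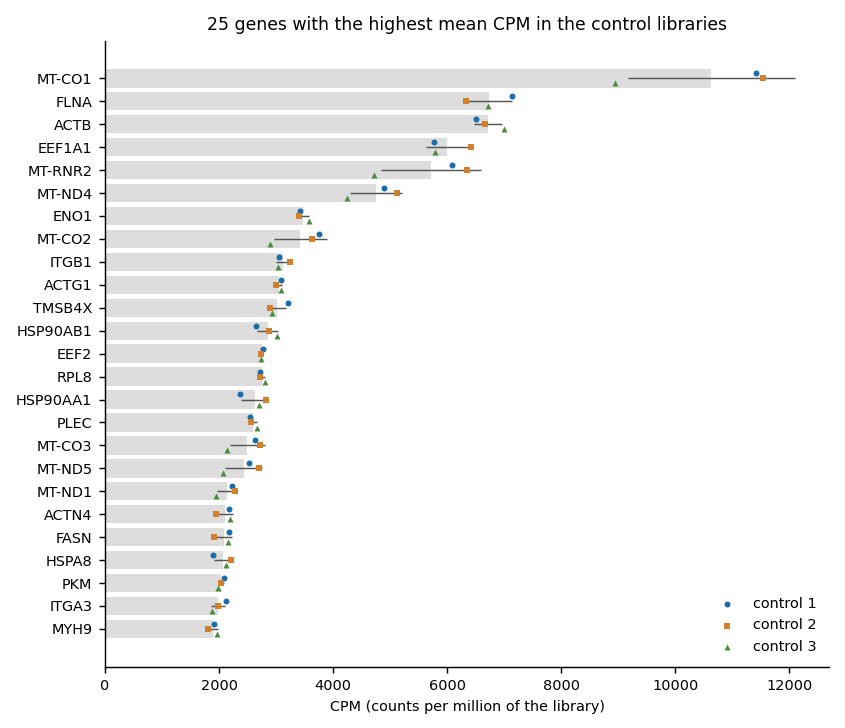
CPM (x axis) of the 25 genes with the highest mean CPM, with a bar for the mean, a line for the SD and a point for each of the 3 control libraries. The mitochondrially encoded genes are lower in control 3 than in control 1 and 2, and MT-CO1 is the highest gene at 10632 ± 1464 CPM.

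Mitochondrially encoded genes led the reads. MT-CO1, a subunit of cytochrome c oxidase, stood at 11409.6, 11543 and 8943 CPM, and the 13 mitochondrially encoded mRNAs together took 3.44%, 3.52% and 2.79% of the counts in control 1, 2 and 3. Control 3 was the lowest for each of the genes of this group that is plotted. Per length, the nuclear gene at the top was TMSB10, which encodes an actin-sequestering thymosin, at 9011 ± 412 TPM. ACTB followed at 7284 ± 375 TPM and TMSB4X, another thymosin, at 6737 ± 361. FTL, the ferritin light chain, was at 4098 ± 349.9 TPM, S100A6, a calcium-binding protein, at 3119 ± 102, and YBX1, which binds mRNA, at 3096 ± 139. The ribosomal proteins were nearly complete, with 84 of 86 genes present, 71 of them at 100 CPM or more. RPL3L and RPL10L, which are read in few tissues, were the members under 1 CPM.

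Transcription factors of many lineages were searched, 331 genes from the lists and families of factors. Of these 122 were present, 64 had at least 10 CPM and 14 at least 100 CPM, while 100 had no read in any control library. Per length the order began with FOSL1, an AP-1 subunit, at 641 ± 68.3 TPM. SOX12, a factor of the same group as SOX4, came next at 259 ± 30.8 TPM, then TWIST1, a driver of mesenchymal state, at 232 ± 42.0, and SOX9, a factor of ducts, cartilage and progenitors, at 221 ± 38.1. The SDs of these last 3 overlapped, so their order was within the spread. FOXP4 followed at 201 ± 26.8 TPM, SOX4 at 189 ± 40.3 and NR2F2, an orphan nuclear receptor of mesenchyme, at 189 ± 16.5, again within each other's spread. FOXA2 at 96.9 ± 6.53, PAX2 at 94.5 ± 22.6 and LHX1 at 77.6 ± 1.89 TPM came lower, and the spread of PAX2 overlapped that of both others.

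**Figure D2:**
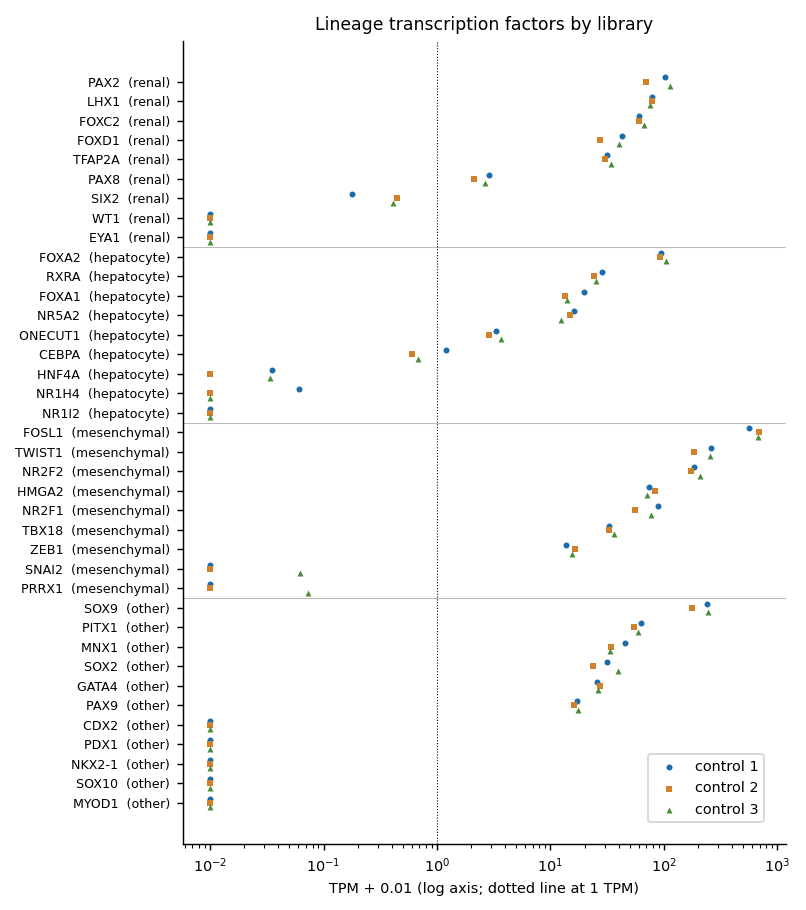
TPM + 0.01 on a log axis (x) of lineage factors, grouped as renal, hepatocyte, mesenchymal or other, with a point for each of the 3 control libraries and a dotted line at 1 TPM. PAX2 and LHX1 sit to the right of 10 TPM in every library, while HNF4A, NR1I2, WT1, EYA1, CDX2, PDX1, NKX2-1, SOX10 and MYOD1 sit at or near the left edge, which stands for 0.

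Renal and nephric factors fell into a present and an absent part. 14 of 31 were present, against 60.3% of all protein-coding genes, 8 of them at 10 CPM or more, and the median of the list was 0.291 CPM. The levels of PAX2 and LHX1 are given above. TFAP2A, a factor of neural crest and ectoderm that also acts in the distal nephron, stood at 68.8, 66.4 and 72.6 CPM. FOXC2, of paraxial mesoderm and podocytes, stood at 46.3, 46.1 and 49.7 CPM, and FOXD1, which marks renal stroma, at 29.5, 19.2 and 27.0. PAX8, which acts with PAX2 in the nephric duct, was lower at 5.55, 4.10 and 5.05 CPM. WT1 and EYA1, which mark nephron progenitors, had no read in any library, nor did EMX2, LMX1B, TCF21, IRX1, IRX2, SIM1, POU3F3 and HOXD11, and SIX2 was at 0.193 CPM. Proximal tubule genes counted 20 of 46 present. HAVCR1, the kidney injury molecule, stood at 149, 141 and 151 CPM, CDH2, or N-cadherin, at 155, 147 and 141, and SLC47A1, a cation exporter, at 23.1, 27.7 and 25.9. The anion and cation uptake carriers SLC22A6, SLC22A8, SLC22A2 and SLC22A12 had no read. Distal nephron genes counted 4 of 33 present, led in reads by KCNJ16, a potassium channel, at 62.2, 55.0 and 55.3 CPM, and UMOD and SLC12A1 had none. Podocyte genes counted 10 of 19, with KIRREL1, an adhesion protein also found outside the kidney, at 929, 903 and 949 CPM and NPHS1, of the slit diaphragm, at 0.158 CPM. Of the 8 defining renal markers 7 were present, and their summed level ran from 349.7 to 417 CPM per library, most of it from PAX2 and LHX1. The eighth, LRP2, the endocytic receptor megalin, was at 0, 0 and 0.0902 CPM.

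Hepatocyte factors were split between shared endoderm genes and liver-restricted ones. 13 of 20 were present, a share of 65.0% beside 60.3% of protein-coding genes, but none reached 100 CPM and the list median was 1.56 CPM. FOXA2, a pioneer factor of endoderm, stood at 64.3, 63.8 and 70.0 CPM and RXRA, a partner of many nuclear receptors, at 83.0, 71.3 and 72.1. NR5A2, which acts in bile acid and steroid control, stood at 32.3, 29.5 and 24.2 CPM and FOXA1 at 20.7, 14.1 and 14.2. CEBPA was at 0.828, 0.410 and 0.451 CPM, HNF4A at 0.0313, NR1H4, the bile acid receptor, at 0.0162, and NR1I2, the xenobiotic receptor, had no read. Of the 8 defining hepatocyte markers 2 were present, and the 8 together summed to 2.67 to 3.93 CPM per library. ASGR1, a subunit of the asialoglycoprotein receptor, was at 1.02, 0.820 and 1.26 CPM.

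Plasma proteins of the liver were mostly under 1 CPM. 23 of 97 were present, 7 had at least 10 CPM, 26 had no read in any library, and the median was 0.0602 CPM. The genes that were present are in large part made outside the liver too. APOE, a lipid carrier, stood at 160.1, 129.9 and 133 CPM, FN1, or fibronectin, at 125, 96.4 and 89.2, and PROS1, protein S of coagulation, at 59.4, 57.9 and 49.6. Complement C3 stood at 29.1, 32.0 and 24.0 CPM, and CP, or ceruloplasmin, at 17.0, 13.3 and 6.497, lowest in control 3. Among the fibrinogen chains FGB stood at 5.50, 5.33 and 6.99 CPM and FGG at 4.67, 5.28 and 3.61. TF, or transferrin, stood at 5.36, 3.33 and 3.34 CPM and SERPINA1, alpha-1 antitrypsin, at 0.730. APOB, APOC3, GC, F9, HAMP, CRP, SAA1, SAA2, ORM1 and KNG1 had no read. Hepatocyte enzymes and transporters counted 16 of 78 present with a median of 0.0563 CPM. ABCC2, an export pump of liver and proximal tubule, stood at 132, 137 and 114 CPM, CPS1, which opens the urea cycle, at 31.6, 34.0 and 39.97, CYP27A1, a sterol hydroxylase, at 34.9, 33.4 and 32.0, and BAAT, which conjugates bile acids, at 17.0, 18.3 and 14.6. CYP1A2, CYP2B6, TDO2, AGXT and UROC1 had no read.

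Liver cancer genes gave no uniform picture. 12 of 26 were present. PEG10, an imprinted gene of retroviral origin, stood at 1180.2, 1184 and 1304 CPM, IGF2BP1 and IGF2BP2, which bind mRNA of fetal tissue, at 119 ± 1.68 and 101 ± 12.5, and DLK1, an imprinted surface protein, at 115, 81.5 and 80.2. GPC3, a glypican of liver cancer, was at 0.221 CPM, H19 at 0.130, IGF2 at 1.76, and MIR122HG, the host of the liver microRNA miR-122, had no read. Bile duct genes counted 12 of 23, among them SPP1, or osteopontin, at 1434, 1183 and 999.7 CPM, and KRT7 and SOX9 as above, with KRT19 at 0.130 and EPCAM at 0.0646 CPM. Entry factors of hepatitis viruses counted 10 of 14. CLDN1, CD81, SCARB1 and OCLN, which admit hepatitis C virus, stood at 231 ± 34.3, 146 ± 7.88, 151 ± 3.11 and 23.7 ± 3.13 CPM, and SLC10A1, the bile acid carrier that admits hepatitis B virus, at 0.102 CPM.

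Mesenchymal and matrix genes had the highest share present among the lists of cell types. 44 of 54 were present, 37 at 10 CPM or more and 22 at 100 or more, and the median was 64.3 CPM beside 6.86 for protein-coding genes. CAVIN1, which shapes caveolae, stood at 1272, 1293 and 1327 CPM. CAV1, their main coat protein, stood at 847, 869 and 973 CPM. THBS1, or thrombospondin, stood at 811, 951 and 753 CPM, highest in control 2. COL1A2 stood at 745, 578 and 638 CPM and its partner COL1A1 at 88.0, 59.2 and 68.1, so that per length COL1A2 was at 224 ± 28.9 and COL1A1 at 27.9 ± 5.68 TPM. Other members of the list, picked after their values were seen, were at or near 0, with PDGFRA, THY1, DCN, LUM and CDH11 without a read and PDGFRB at 0.0825 CPM. Among the regulators of the mesenchymal state TWIST1 stood at 139, 98.9 and 132 CPM, ZEB1 at 31.0, 37.4 and 34.2 and ZEB2 at 12.4, 15.5 and 15.1, while SNAI2 was at 0.0150 and PRRX1 at 0.0451 CPM. HMGA2, a chromatin protein of embryonic cells, stood at 297, 337 and 281 CPM and TBX18, a factor of mesenchyme around ducts and vessels, at 73.0, 74.0 and 79.3.

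Epithelial genes were present at a share close to that of all protein-coding genes. 28 of 50 counted as present, or 56.0% beside 60.3%, with a median of 3.27 CPM. CLDN1, a tight junction claudin, stood at 216, 271 and 207 CPM, DSG2, of desmosomes, at 218, 228 and 206, PERP, of desmosomes as well, at 307, 286 and 222, and JUP, or plakoglobin, at 131, 81.1 and 116. CDH1, or E-cadherin, stood at 2.48, 1.38 and 1.31 CPM and N-cadherin, CDH2, at 155, 147 and 141, or 1.06 ± 0.399 and 114 ± 4.15 TPM per length. EPCAM was at 0.0646 CPM, ESRP1, the epithelial splicing factor, at 0.334, and GRHL2, OVOL2 and CLDN7 had no read. Keratins counted 9 of 55. KRT8 stood at 445, 381 and 407 CPM, KRT18 at 93.0, 87.7 and 95.6, KRT80 at 336, 312 and 346 and KRT7 as given, and KRT5, KRT14 and KRT6A had no read. Per length KRT7 was at 613 ± 59.5, KRT80 at 291 ± 19.3, KRT8 at 228 ± 18.1 and KRT18 at 109 ± 6.21 TPM, an order whose neighbours stood apart by more than their SD.

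**Figure D3:**
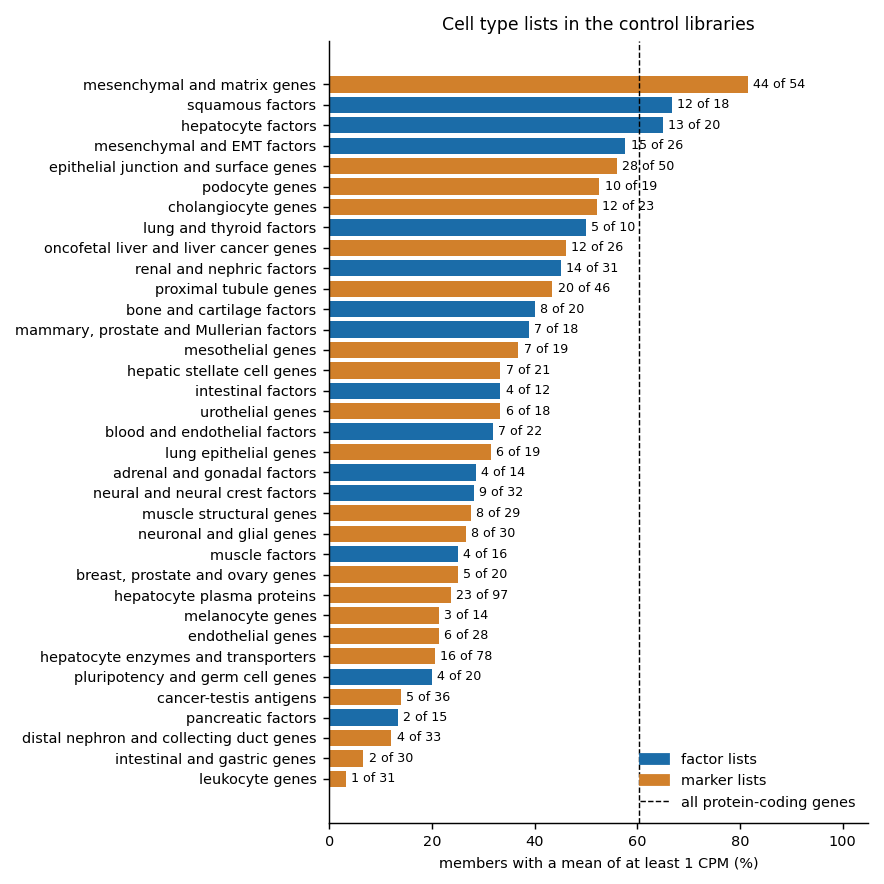
Share of each cell type list (x axis, percent) with a mean of at least 1 CPM over the 3 control libraries, for factor lists and marker lists, with the number present of the number measured. The dashed line is the 60.3% of all protein-coding genes, and mesenchymal and matrix genes lie above it, as do squamous factors at 12 of 18 and hepatocyte factors at 13 of 20, while leukocyte genes, at 1 of 31, are the lowest.

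Lists of other cell types had a lower share of members present than the 60.3% of all protein-coding genes. Some of their members were nonetheless high. Leukocyte genes counted 1 of 31, CORO1A at 4.74 CPM, with a summed level of 6.57 to 7.35 CPM per library, PTPRC at 0.363 and CD3E at 0. Endothelial genes counted 6 of 28, with a sum of 89.1 to 96.9 CPM. ADGRL4 and EGFL7, which endothelium also uses, supplied most of it at 54.3 ± 7.03 and 31.3 ± 3.03 CPM, and KDR, VWF, TEK and FLT1 had no read. Stellate cell genes counted 7 of 21 with a sum of 228 to 303 CPM, and HGF, PDGFRA and HAND2 were at 0. Intestinal and gastric genes counted 2 of 30, with CDX2, VIL1 and CDH17 at 0. Lung genes counted 6 of 19, with CAV1 at 896 CPM and NKX2-1 and SCGB1A1 at 0. Mesothelial genes counted 7 of 19, with a sum of 851 to 957 CPM, most of it from KRT7, CDH2 and KRT18. MSLN was at 0.429 CPM and WT1 at 0. Urothelial genes counted 6 of 18, with UPK1B at 16.01 CPM, UPK2 at 0.308 and UPK3A at 0. Melanocyte, neuronal and muscle lists counted 3 of 14, 8 of 30 and 8 of 29, with SOX10, DCX and MYOD1 at 0. SCG2, a granule protein of neuroendocrine cells, stood out in the neuronal list at 179, 153 and 169 CPM, and TNNT1, a slow muscle troponin, in the muscle list at 108, 86.8 and 89.9.

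Positional and patterning factors were counted by family. HOX genes counted 7 of 39 present and none reached 10 CPM. HOXA3 stood at 7.45, 4.82 and 6.86 CPM and HOXB6 at 6.13, 4.25 and 4.83, and the HOXC and HOXD clusters had no member at 1 CPM. Among the PAX genes PAX9 stood at 27.1, 25.8 and 27.1 CPM beside PAX2, and PAX3, PAX7, PAX1 and PAX4 had no read. Of the SOX genes SOX12, SOX4 and SOX9 passed 100 CPM, SOX4 at 359, 238 and 273 and SOX9 at 248, 185 and 250.3. SOX2, known from stem cells and foregut, stood at 20.7, 15.8 and 25.4 CPM, and POU5F1, whose reads may be shared with its processed copies, at 9.64, 8.05 and 10.1, while NANOG, LIN28B and DPPA4 had no read. GATA4, of heart, gut and gonad, stood at 30.1, 32.1 and 29.7 CPM and GATA6, which often accompanies it, at 0.213. MNX1, of pancreas and motor neurons, stood at 50.1, 38.4 and 36.3 CPM, PITX1, of hindlimb and oral ectoderm, at 58.1, 50.8 and 53.2, and PDX1 at 0. Squamous factors counted 12 of 18, or 66.7%, with a median of 6.25 CPM. TFAP2C, of trophoblast and ectoderm, stood at 63.2, 56.1 and 58.2 CPM, KLF5, of proliferating epithelia, at 39.9, 39.4 and 39.2, and TP63, the factor of basal cells, at 0.0313.

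At the surface, receptor tyrosine kinases counted 23 of 54 present, or 42.6% beside 60.3% of protein-coding genes, and 10 at 100 CPM or more. FGFR1 stood at 1371, 1228 and 1407 CPM, EPHA2, an ephrin receptor, at 803, 809.7 and 811, and AXL, a receptor for GAS6, at 499, 555 and 583. MET, the receptor for hepatocyte growth factor, stood at 370.4, 415 and 405 CPM and EGFR at 296, 294 and 286. Per length EPHA2 was at 741 ± 13.4 TPM, AXL at 404 ± 36.1, FGFR1 at 368 ± 30.7, MET at 215 ± 13.4, FGFR4 at 146 ± 24.3 and EGFR at 89.1 ± 0.602, with AXL and FGFR1 overlapping in their spread. FGFR2, KIT, PDGFRA, FLT3 and KDR had no read. Integrins counted 15 of 26, or 57.7%. After ITGB1 and ITGA3, ITGB5 stood at 355, 304 and 295 CPM, ITGAV at 343, 348 and 261, lowest in control 3, and ITGA6, a laminin receptor, at 165, 167 and 172. The leukocyte integrins ITGAX, ITGB7 and ITGAD had no read. Receptors for cytokines and tumour necrosis factor ligands counted 46 of 60, or 76.7%. TNFRSF12A, the receptor for TWEAK, stood at 334, 343 and 308 CPM and TNFRSF10B, a death receptor, at 215, 251 and 227. CD44, a receptor for hyaluronan, stood at 565, 571 and 564 CPM and CD24, a small glycosylated surface protein, at 519, 454 and 515.

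Among secreted factors, ligands of receptor tyrosine kinases counted 34 of 63 present, or 54.0% beside 60.3% of protein-coding genes. FGF5 stood at 287, 350.5 and 344 CPM, lowest in control 1, and FGF2 at 98.4, 133 and 117. NRG1, or neuregulin, stood at 183, 198 and 188 CPM, and EREG, a ligand of EGFR, at 142, 189.8 and 159. HBEGF, another ligand of EGFR, stood at 59.1, 85.1 and 74.0 CPM. PDGFB stood at 149, 143 and 143 CPM while its receptor PDGFRB was at 0.0825, and HGF, the ligand of MET, had no read. Cytokines and chemokines counted 30 of 72, or 41.7%. SPP1 lay between 999.7 and 1434 CPM, TGFB1 stood at 349, 283 and 306 and LIF, a cytokine of the interleukin 6 family, at 224, 256 and 200.4. CXCL8 stood at 103, 165 and 98.2 CPM and CXCL1 at 83.2, 114 and 82.7, both highest in control 2, while IL6 was at 0.390 and CXCL10, CXCL12 and IL33 had no read. Secreted proteases and their inhibitors counted 38 of 64, or 59.4%. MMP1, the interstitial collagenase, stood at 910.3, 1238 and 703 CPM, highest in control 2, PLAU, or urokinase, at 168, 187 and 169, and MMP2 at 0.306. Collagens counted 24 of 44, or 54.5%, and laminins 8 of 12, or 66.7%. COL18A1 stood at 1081, 819 and 909 CPM, LAMA5 at 1143, 876 and 1049 and LAMC1 at 669, 657 and 589. AMH, the hormone that removes the Mullerian duct, stood at 67.1, 50.2 and 51.6 CPM.

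Metabolic genes that exist in several forms were compared per length. The liver forms of 8 steps (SLC2A2, PKLR, FBP1, GYS2, MAT1A, ARG1, PCK1 and FABP1) were all under 1 CPM, and 3 of them, ARG1, PCK1 and FABP1, had no read. For pyruvate kinase PKM was at 908 ± 16.3 TPM and PKLR had 0, 1 and 0 reads. SLC2A1 was at 225 ± 9.22 TPM and SLC2A2, the liver glucose carrier, at 0.850 ± 0.338. Methionine adenosyltransferase was read from MAT2A at 193 ± 9.61 TPM and from MAT1A at 0.166 ± 0.0212. Liver-type forms were nonetheless present for phosphofructokinase and glycogen phosphorylase. PFKL made 11.1% ± 0.969 of the summed TPM of its step beside PFKP at 83.5% ± 0.788. PYGL made 7.76% ± 0.553 beside PYGB at 92.2% ± 0.559 (SD, n = 3). CPT1A, the liver form of the enzyme that admits fatty acids to mitochondria, was at 40.5 ± 1.59 TPM and CPT1B, the muscle form, at 1.90 ± 0.493. Arginase was read from ARG2 at 9.29 ± 0.410 TPM, phosphoenolpyruvate carboxykinase from PCK2 at 65.3 ± 2.95, and lactate transport from SLC16A1 at 92.5 ± 9.50 with SLC16A3 at 1.26 ± 0.0985.

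**Figure D4:**
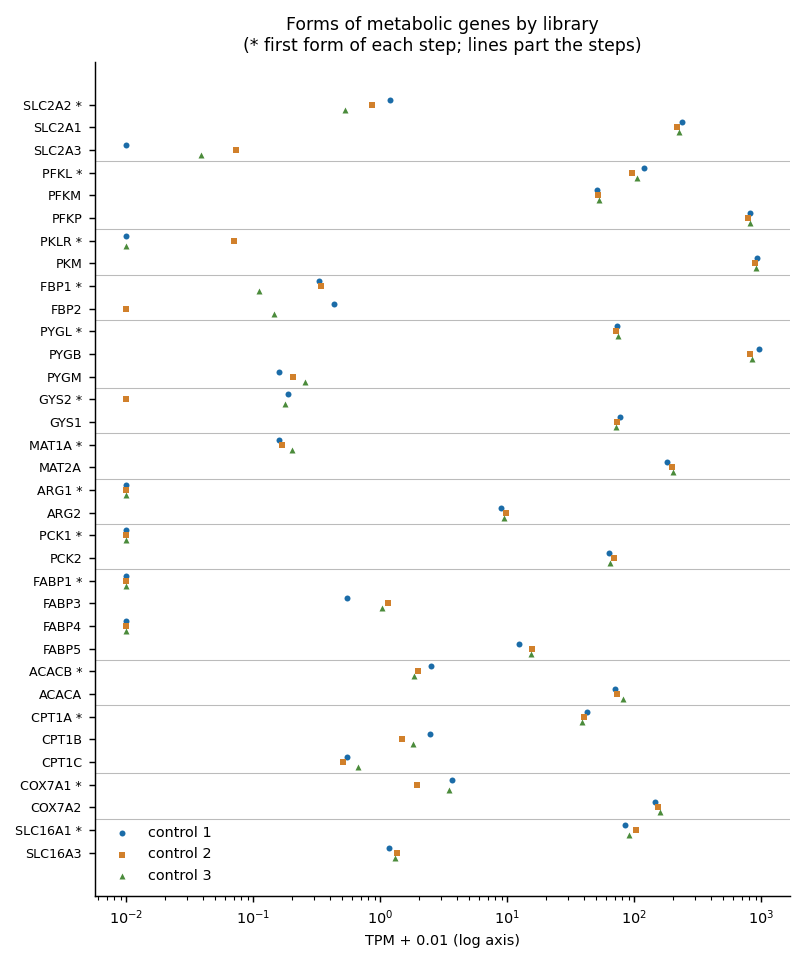
TPM + 0.01 on a log axis (x) of the forms of 14 metabolic steps, with a point for each of the 3 control libraries and an asterisk at the form listed first. Most liver forms sit left of 1 TPM, with no read at 0.01, while SLC2A1, PKM, GYS1 and MAT2A sit to the right of 10 TPM.

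Families of detoxifying enzymes and carriers were counted in the same way. Glutathione transferases counted 6 of 16 present, with GSTO1 at 126, 141 and 114 CPM, GSTP1, the pi class form, at 0, 0.154 and 0.226, and GSTA1, GSTA2 and GSTM1 at 0. UDP-glucuronosyltransferases counted 2 of 21, UGT1A9 at 5.68 CPM, whose exons are in part shared with other UGT1A genes, and UGT2B7 at 3.40. Cytochromes P450 counted 17 of 55. CYP24A1, the vitamin D 24-hydroxylase known from the proximal tubule, stood at 262, 222 and 241 CPM, and CYP3A4, the main drug-metabolizing form of liver, at 0.0301. Of the SLCO carriers 3 of 12 were present, SLCO4A1 at 349, 299.7 and 323 CPM and the liver carrier SLCO1B1 at 0.128. Metallothioneins counted 2 of 11, MT2A at 481, 618 and 575 CPM and MT1E at 79.7, 111 and 107, with MT1G, MT1F and MT1M at 0. Aldehyde dehydrogenases counted 12 of 18, with ALDH1A1, which makes retinoic acid, at 117, 97.5 and 98.7 CPM.

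Tumour suppressors were present with few exceptions. 46 of 49 were present, and the 3 that were not, CDKN2A, CDKN2B and MTAP, are neighbours on chromosome 9. CDKN2A, which encodes inhibitors of the cell cycle, had 0, 12 and 11 reads in control 1, 2 and 3, CDKN2B had 0, 1 and 2, and MTAP, a housekeeping enzyme of methylthioadenosine salvage, had 0, 1 and 1. The low stretch was wider than these genes. From SLC24A2 to TUSC1 (chromosome 9, 19507452 to 25678440, GRCh38), 29 protein-coding genes in a row had a mean under 1 CPM, over 6.17 megabases. Of them 16 were interferon genes, which are read on induction. The other 13 included MLLT3 with no read, FOCAD with 0, 1 and 0, KLHL9 with 0, 2 and 0 and TUSC1 with 0, 4 and 0. Control 1 had 0 reads over all 29, control 2 had 21 and control 3 had 15. On both sides were genes above 1 CPM. ACER2, next to it, was low at 1.95, 1.69 and 2.26 CPM and RPS6, before that, at 855, 936 and 868, with CAAP1 at 20.2, 21.5 and 18.4 and PLAA at 28.0, 31.4 and 28.5 after it. By number of genes this was the 9th of 3594 such rows of genes on the autosomes and X. In the longest, on chromosome 11, 57 of 65 were olfactory receptors, and over all chromosomes 39.7% of protein-coding genes were under 1 CPM. The stretch was picked after its values were seen, and whether the DNA is present was not measured. Whether the few reads in control 2 and 3 came from these cells was not tested.

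**Figure D5:**
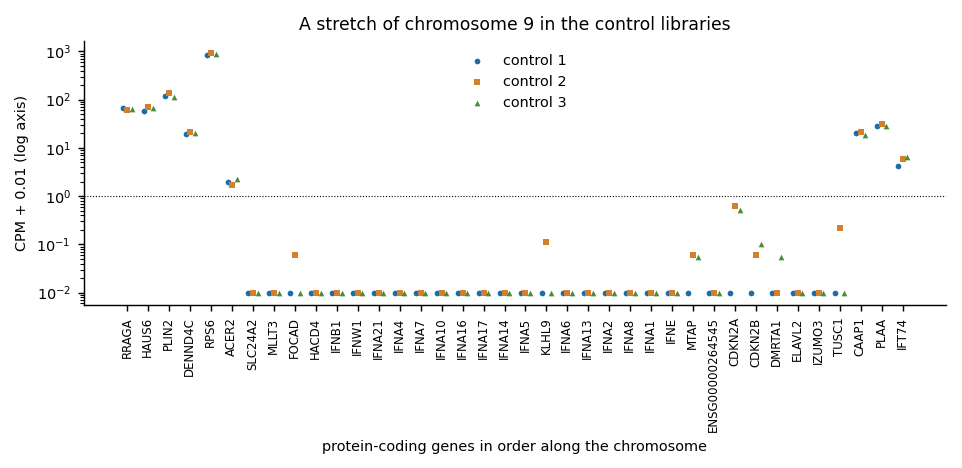
CPM + 0.01 on a log axis (y) of protein-coding genes in their order along a part of chromosome 9 (x, 1 gene a position), with a point for each of the 3 control libraries and a dotted line at 1 CPM. The 29 genes from SLC24A2 to TUSC1 all lie under the line, and their neighbours on both sides lie above it.

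Growth genes were read at high levels. Oncogenes and proliferation genes counted 47 of 49 present with a median of 153 CPM beside 6.86 for protein-coding genes, and MYCN and CCND2 had no read. HMGA1, a chromatin protein of dividing cells, stood at 1018, 1085 and 1087 CPM, MYC at 294, 335 and 299, CCND1, or cyclin D1, at 451, 506 and 490.1 and JUN at 410.2, 404 and 407. All 29 housekeeping genes were present. GAPDH stood at 1900.1, 1831 and 1836 CPM and GUSB, a lysosomal enzyme, at 70.7, 58.6 and 61.5.

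The 3 libraries were alike, though not copies. Across the 13233 genes present, log2(CPM + 1) correlated with a Pearson r of 0.994 to 0.995 between pairs, a description across genes, which are not independent replicates. The chi-square per gene was 9.11 to 10.3, where sampling noise alone gives about 1, and no library repeated another within that noise. It does not show whether the libraries came from separate cultures. Over 9383 genes of at least 10 CPM the median coefficient of variation (SD over mean) was 6.39%, against 3.16% from counting. The widest spread belonged to rows with no symbol. ENSG00000278047 had 10, 0 and 1074 reads in control 1, 2 and 3, and ENSG00000275209 had 1668, 59 and 14. Among named genes CP led, with a coefficient of 43.4%. HMOX1, or heme oxygenase, stood at 46.5, 81.5 and 37.0 CPM, and SLC7A11, the cystine carrier, at 31.2, 52.2 and 27.0, both highest in control 2. DLGAP5, which binds spindle microtubules, stood at 57.1, 64.0 and 106 CPM, and NEK2, a kinase of centrosomes, at 43.7, 52.7 and 83.8. Both were highest in control 3. Of 20 mitosis genes chosen after this was seen, 20 were highest in control 3, beside 3015 of the 9383 genes of at least 10 CPM. Because of that choice the count supports nothing further. The 20 genes summed to 2719, 2875 and 4149 CPM. Control 3 also had the lowest share of mitochondrially encoded reads, and what sets it apart was not tested.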

How the data were processed

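Whole-transcriptome RNA of the 3 control libraries was used. The authors deposited raw read counts per gene, per the file headers, with 60448 human Ensembl identifiers. The build listed in the submitters' processing notes is mm8, a mouse assembly, although all identifiers are human. What aligned and counted the reads, with which annotation and strand setting, was not given in the sources used here, so overlapping or near-identical genes are uncertain. CEBPA, GYS2, IGF2, VIL1, ITGB7 and UGT1A9 share 42.1% to 87.5% of their exon length with another annotated gene. Among genes with higher levels, VIM shares 24.4% of its exon length with VIM-AS1 and KRT18 shares 16.3% with KRT8. A gene name table named 56434 rows and GENCODE 29 named 434 more. The 3580 rows left, with 0.0472% of the counts, stayed in library totals.

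CPM was the count per 1000000 counts of the library. TPM used the union of exons in GENCODE 29 (GRCh38). Values are mean ± SD over 3 libraries, and no test was run because a single group has no comparison. The intervals and floors cover counting error only. The members and gene lists were chosen with earlier results of these data known. Named genes were the 25 with the most reads and the 25 highest per length, up to 8 members of each list by CPM, cell-type-defining members under 1 CPM, the isozymes, the 15 with the widest spread, and the 5 markers. Some further members at 0 were named after their values were seen. XIST, Y-linked genes and some members of the lists are not reported here by name. Alternatives were TMM-scaled sizes (edgeR 4.0.16, R 4.3.3), totals without mitochondrial genes, other detection rules, another gene length, and leaving out each library. The spread calculation was tested on simulated data. Other steps used Python 3.11.15 and pandas 2.3.3.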

Additional observations from a re-analysis of the deposited data

How the results depend on the processing

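With totals that leave out mitochondrial genes, the share of the 100 genes with the most reads moved from 18.1% to 18.9%. This was by more than its SD, since that total is smaller. Mitochondrial genes stayed among the 100, so the 18.9% is not their share of the non-mitochondrial counts alone. Leaving out each control library, with full totals, gave 18.0 to 18.4% for the share of the 100 genes and 13222 to 13264 genes present. It left 14 renal factors each time and 22 to 23 liver plasma proteins. The median coefficient of variation was then 4.60 to 5.86%. Over fewer libraries this median is lower by construction, so it cannot be compared with the 6.39% of all control libraries. The genes present numbered 14500 at 0.5 CPM, 12836 at 1 CPM in every library and 15181 at 1 TPM. The liver plasma proteins numbered 30, 20 and 27 under these rules, and the renal factors 15, 14 and 14. Of the other counts of members present over all lists and alternatives, 593 stayed within 1.5 times and 7 did not, all of them in the pancreatic, leukocyte, intestinal, endothelial or muscle lists under another detection rule. The levels of 63 of the named genes were recomputed. Of these values over the alternatives, 301 moved by less than their SD and 14 by more, all 14 with totals that leave out mitochondrial genes. With the length of the longest transcript, 22 of the 25 genes highest per length were shared. No paired analysis was possible because a single group was used. Depth limits the genes near 0.146 CPM, where a few reads set the value.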

Other observations

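Long non-coding RNAs took 0.653% to 0.685% of the counts, and 903 of 14262 such genes were present. NORAD, which binds Pumilio proteins, stood at 264, 271 and 264 CPM in control 1, 2 and 3, NEAT1, the scaffold of paraspeckles, at 204, 194 and 217, and GAS5, a host of small nucleolar RNAs, at 113, 138 and 126. MEG3, an imprinted RNA that neighbours DLK1, stood at 109.6, 91.6 and 96.0 CPM, and MALAT1, abundant in many cells, at 73.6, 79.6 and 82.0. Per length NORAD was at 190.3 ± 2.45, GAS5 at 132 ± 13.1, MALAT1 at 33.9 ± 2.23 and MEG3 at 16.3 ± 1.52 TPM (SD, n = 3).

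Some genes were read in all control libraries but 1. With at most 1 read in a library and at least 10 in each of the other two, 6 genes were missing from control 1, 2 from control 2 and 5 from control 3. Those missing from control 1 included CGA, the common chain of glycoprotein hormones, with 0, 24 and 17 reads in control 1, 2 and 3. They also included CA9, a hypoxia-induced carbonic anhydrase, with 0, 12 and 10, SMOC1 with 0, 13 and 11 and CDKN2A with 0, 12 and 11. FOLR1, a folate receptor, and KRT17, a basal keratin, were near this pattern, with 3, 45 and 32 and 5, 37 and 31 reads. The levels of CGA, CA9, SMOC1, CDKN2A, FOLR1 and KRT17 were under 3 CPM in every library. APOL1, missing from control 3, had 13, 13 and 1 reads. The bounds were set after the values were seen, and whether the few reads of these genes came from the cells of that library was not tested.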
